A study of Mus musculus with 6 samples.

Results

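The BCL2 family of apoptosis regulators was examined in maps of N6-methyladenosine (m6A) in RNA from male mouse germ cells. The family was represented by 10 genes: Bcl2, Bcl2l1, Bcl2l2, Mcl1, Bad, Bax, Bak1, Bid, Bok and Bcl2l11. Rows were taken from both deposited peak tables wherever the gene name matched one of these symbols. Of the 10 genes, 6 carried at least 1 peak in each table, and they were the same 6 genes in both. They held 11 of the 24127 peaks listed for ClpP and 11 of the 23681 listed for ClpX.

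Primary male germ cells, spermatocytes by their titles, were collected on postnatal day 35. The 3 genotypes were a germ-cell knockout of ClpP (ClpP cKO), a germ-cell knockout of ClpX (ClpX cKO) and wild type (WT), both knockouts being driven by Stra8-Cre, a recombinase under a promoter of the premeiotic male germ line. ClpX is the unfoldase and ClpP the protease of a complex that degrades proteins in the mitochondrial matrix. Each genotype gave 1 immunoprecipitated (IP) library, holding RNA captured by an m6A antibody, and 1 input library, holding the RNA before capture. The labels do not give the number of animals behind a library or the strain, and do not say whether the WT cells carried Cre. There was 1 library per group, so values are given without an error and differences could not be checked across replicates.

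The m6A mark is placed on messenger RNA in the nucleus and is read by proteins that affect splicing, translation and decay. BCL2 family proteins decide whether the outer mitochondrial membrane is permeabilised, the step that releases cytochrome c and starts the caspase cascade. Bcl2, Bcl2l1 (BCL-XL), Bcl2l2 (BCL-W) and Mcl1 hold that step back; Bax, Bak1 and Bok carry it out; the BH3-only proteins Bad, Bid and Bcl2l11 (BIM) promote it by binding the others. In the mouse testis the balance sets the size of the germ cell pool, and male mice lacking Bax or Bcl2l2 are sterile.

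Each value is from the authors' own comparison of a knockout with WT, in which both knockouts were set against the same WT libraries. Fold enrichment is the ratio of IP over input at a peak, given once for all 4 libraries of a comparison. The log2 fold change is the change of enrichment between the genotypes. A positive value is read as higher in the knockout. That reading rests on the order of names in each table, knockout then WT, and every direction below turns round if the ratio was taken the opposite way. Calls are peaks whose difference had an adjusted p below 0.05 by the authors' test, which sets single libraries against each other. Positions refer to GRCm38 (mm10), and peaks of a gene are numbered from its 5′ end.

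The sequences used here cover windows around annotated gene starts, and so only a few of these peaks. RefSeq promoter windows (GRCm38.p6), running from 250 bases before to 50 after a start, matched all 10 genes with 14 windows. A window reached a member peak at 2 places, the 5′ peaks of Bcl2l1 and Bad. Antibody peaks are commonly centred on a short adenosine motif, so both stretches were searched on both strands for GGACT, for GGAC, and for the 18 runs of 5 letters made of A, G or T, then A or G, then AC, then A, C or T. The 18 runs include GGACT, and GGAC overlaps it. In the ClpP comparison the Bcl2l1 stretch (chr2:152830669-152830878, minus strand, 210 bases) had 3 matches to these runs on the RNA's strand, and the Bad stretch (plus strand, 174 of the 209 peak bases) had 4. The sites follow with the run in capitals and 10 genomic bases on either side.

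Bcl2l1, chr2:152830843-152830867: tccctgcgcgAAACCttgagattca
Bcl2l1, chr2:152830738-152830762: aaattacactAAACCcatacctccg
Bcl2l1, chr2:152830711-152830735: agagttctccTGACTcccagtagga
Bad, chr19:6942317-6942341: atccaaatggGAACCccaaagcagc
Bad, chr19:6942421-6942445: aaggcggtggAGACCagcaggtcgg
Bad, chr19:6942498-6942522: tttacttcgaAAACTgattgggtca
Bad, chr19:6942519-6942543: gtcagatctgTGACAgttctcgtcg

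None of these sites holds GGAC, and GGAC had 0 matches on the RNA's strand in either stretch. On the opposite strand GGAC had 3 matches in the Bcl2l1 stretch and 1 in the Bad stretch, of which 1 each was GGACT. Over the same positions of all 32851 windows, 53.6% held GGAC on the gene's strand for the Bcl2l1 stretch and 44.5% for the Bad stretch, or 78.2% and 69.6% counting both strands. For GGACT those shares were 19.1% and 14.7% on the gene's strand and 34.7% and 27.6% on both. Any of the 18 runs was present on the gene's strand in 94.6% and 93.5%, and on either strand in 99.3% for both stretches. These positions lie mostly before the start in each window, so the shares describe mainly bases upstream of starts and not bases in peaks. For Bad the opposite strand is that of Gpr137, whose peak shares bases with the Bad peak. A match is a description of the letters and not of a methylated site. The first 2 Bad sites lie in the 5′ Bad peak of both comparisons, the other 2 in that of the ClpP comparison alone, and the 3 Bcl2l1 sites lie in both.

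In ClpP cKO against WT, the largest peaks on the survival genes Bcl2l1 and Mcl1 were called lower, and a small peak near the 3′ end of Mcl1 was called higher. Bcl2l1 peak 2 fell by 0.79 on the log2 scale in the authors' deposited table (adjusted p 1.6e-18), or to 0.58 of the WT enrichment. Mcl1 peak 1 fell by 0.68 (adjusted p 1.5e-05) and Mcl1 peak 2 rose by 2.64 (adjusted p 7.9e-05) in the authors' deposited table. No peak of Bcl2l2, Bad, Bid or Bcl2l11 was called. In all 1 of 11 member peaks was called higher, against 6.74% of all peaks, and 2 of 11 were called lower, against 12.8% of all peaks. In ClpX cKO against WT, 1 of 11 member peaks was called higher, Bad peak 2 at 1.70 (adjusted p 6.5e-05) in the authors' deposited table, against 15.1% of all peaks. There 0 of 11 were called lower, against 5% of all peaks, and no other member peak had an unadjusted p under 0.05 in the authors' deposited table. These numbers are small, and the shares of member peaks called, 27.3% for ClpP and 9.09% for ClpX, stand beside 19.6% and 20.1% of all peaks.

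**Figure D1:**
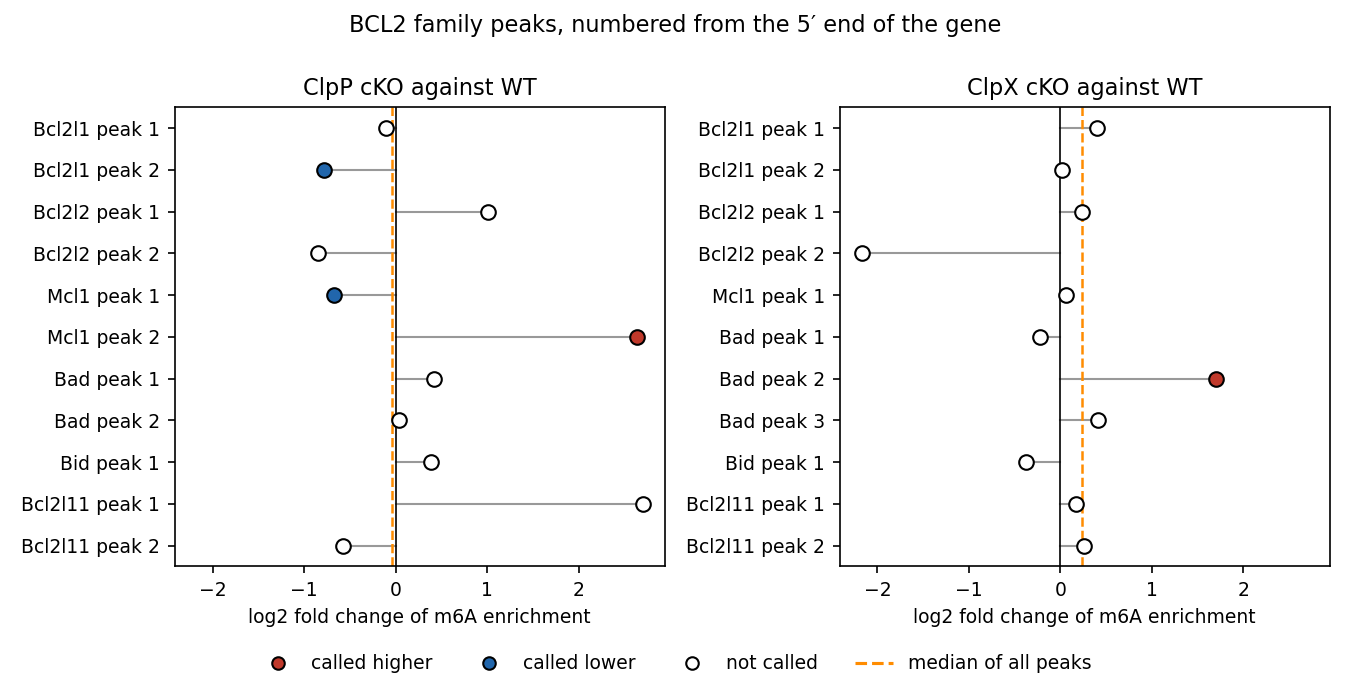
Log2 fold change of m6A enrichment (horizontal axis) for each BCL2 family peak, with ClpP cKO against WT on the left and ClpX cKO against WT on the right; red points were called higher, blue lower and open points were not called, and the dashed line is the median of all peaks. For ClpP 2 points are blue and 1 is red, whereas for ClpX 1 point, Bad peak 2, is red.

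Among the survival genes, Bcl2l1 carried the peak with the smallest peak p of the family in both comparisons. Its peak 2 (chromosome 2, 152829419 to 152830399, minus strand, 840 bases in 3 blocks) had a peak log10 p of -984 and a fold enrichment of 9.05 in the ClpP comparison of the authors' deposited table. The site lies 3404 to 4384 bases from the 5′ end of a RefSeq gene span of chromosome 2, 152758732 to 152833803, and its middle was at 5.19% of that span. In the ClpX comparison the overlapping peak (152829389 to 152830294, 810 shared bases) had a fold enrichment of 12.6 and a log2 fold change of 0.021 (adjusted p 0.60) in the authors' deposited table. Thus the peak was called in ClpP cKO and lay near 0 in ClpX cKO; the difference between the knockouts was not tested. Peak 1 of Bcl2l1, whose sequence is shown above, was weaker, with fold enrichments of 2.71 (ClpP) and 2.91 (ClpX) in the authors' deposited table. Its log2 fold changes were -0.10 (adjusted p 0.61) for ClpP and 0.40 (adjusted p 0.54) for ClpX in the authors' deposited table, and neither was called.

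Mcl1 encodes a short-lived survival protein. Its peak 1 (chromosome 3, 95659328 to 95661288, plus strand, 990 bases in 3 blocks) had a fold enrichment of 16.4 and a peak log10 p of -423 in the ClpP comparison of the authors' deposited table. At -0.68 its enrichment was 0.625 of that in WT. In the ClpX comparison the same region (95659298 to 95661288) had a fold enrichment of 23.5 and a log2 fold change of 0.058 (adjusted p 0.58) in the authors' deposited table, and was not called. Mcl1 peak 2 (95662786 to 95662936, 151 bases) lies 5842 to 5992 bases from the 5′ end of the gene, near the far end of a span that runs from 95656944 to 95663179. It was listed in the ClpP comparison alone. Its fold enrichment of 1.91 exceeded that of 3.18% of all ClpP peaks, while its log2 fold change of 2.64 exceeded that of 98.1%, both from the authors' deposited table. Within Mcl1 the 2 peaks were thus called in opposite directions, as happened in 4% of the 6143 genes with 2 or more peaks in the ClpP comparison.

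Both lower calls were at peaks of very strong support, where such calls were common. Among the 3195 ClpP peaks with a peak log10 p at or under -100, 49.6% were called lower and 4.51% higher. Bcl2l1 peak 2 and Mcl1 peak 1 were the 2 member peaks in that class in either comparison. For ClpX, 16.7% of the 2615 peaks in that class were called lower and 31.2% higher, and neither member peak was. The 2 higher calls were at weakly enriched peaks. Of ClpP peaks with a fold enrichment under 2.5, 19.6% were called higher and 14.7% lower, and of ClpX peaks in that range 46.5% were called higher and 1.05% lower. Without peaks of fold enrichment under 2, the ClpP comparison kept no member called higher, beside 6% of all remaining ClpP peaks.

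**Figure D2:**
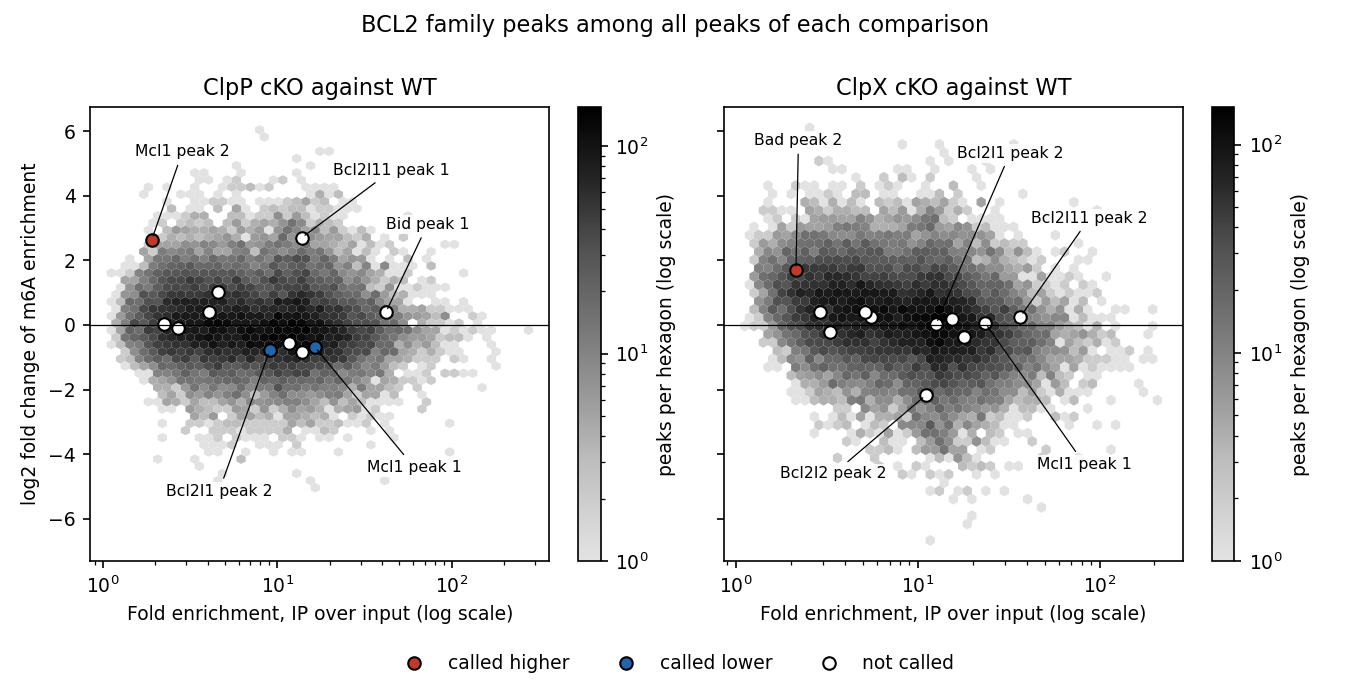
Fold enrichment of IP over input (horizontal, log scale) against log2 fold change of enrichment (vertical) for all peaks as grey hexagons, darker with more peaks, and for BCL2 family peaks as circles coloured by call, ClpP cKO on the left and ClpX cKO on the right. The higher calls, Mcl1 peak 2 at a fold enrichment of 1.91 and Bad peak 2 at 2.14, lie at the weakly enriched side.

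Bcl2l2, the survival gene required for sperm production in the mouse, had 2 peaks in each comparison and no call. Peak 1 (chromosome 14, 54884641 to 54884851 in the ClpP comparison, plus strand) had log2 fold changes of 1.01 (adjusted p 0.30) for ClpP and 0.24 (adjusted p 0.63) for ClpX in the authors' deposited table. In the ClpP comparison 173 of its 211 bases were shared with a peak of the predicted gene Gm20521 on the same strand, at 1.30 (adjusted p 0.14) in the authors' deposited table, so the gene of those reads is uncertain. Peak 2 (54885420 to 54885569 in both) had -0.85 (adjusted p 0.67) for ClpP and -2.17 (adjusted p 0.59) for ClpX in the authors' deposited table. The value of -2.17 is the lowest of the family and was not called, and the peak log10 p there was -2.64. Bcl2 itself, the founding survival gene, had no listed peak.

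The pore-forming effectors were absent from both tables. Bax, Bak1 and Bok had 0 peaks under their own names, and no peak of any gene lay in the RefSeq spans of Bax (chromosome 7, 45461695 to 45466903), Bak1 (chromosome 17, 27019812 to 27028627), Bok (chromosome 1, 93685575 to 93695770) or Bcl2 (chromosome 1, 106538176 to 106714290). Absence says only that no peak there met the authors' threshold; the tables do not give expression, so a transcript that was unmethylated and one that was scarce cannot be told apart. Of 21900 RefSeq protein-coding symbols, 48.0% were listed with a peak in the ClpP table and 47.8% in the ClpX table. The grouping by role was that 3 of 4 survival genes, 0 of 3 effectors and 3 of 3 BH3-only genes had a peak in each comparison.

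The BH3-only gene Bad, whose product is inactivated by survival kinases, was called in ClpX cKO. Its peak 2 (chromosome 19, 6942806 to 6943044, plus strand, 239 bases) rose by 1.70, or 3.25-fold, with a fold enrichment of 2.14 in the authors' deposited table. The peak it overlapped in the ClpP comparison (6942717 to 6942895, 90 shared bases, 50.3% of the shorter peak) had 0.041 (adjusted p 0.63) and a fold enrichment of 2.26 in the authors' deposited table. The stretches compared are therefore only partly the same. Bad peak 1, shown by its sequence above, had 0.41 (adjusted p 0.59) for ClpP and -0.22 (adjusted p 0.63) for ClpX in the authors' deposited table. It shared 164 bases (ClpP) and 134 bases (ClpX) with a peak of Gpr137 on the opposite strand, and the sources used here do not say whether reads were counted by strand. Bad peak 3 (6951156 to 6951275), near the 3′ end, was listed for ClpX alone, at 0.41 (adjusted p 0.70) in the authors' deposited table.

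Bid, which links death receptors to the mitochondrion, carried 1 long peak at its 3′ end (chromosome 6, 120893210 to 120895668, minus strand, 1134 bases in 2 blocks). Its fold enrichment of 41.9 in the ClpP comparison was the highest of the family there and above that of 97.8% of all peaks in the authors' deposited table. In the ClpX comparison it was 17.9. The log2 fold changes had opposite signs, 0.39 (adjusted p 0.36) for ClpP and -0.37 (adjusted p 0.39) for ClpX in the authors' deposited table, and neither was called.

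Bcl2l11, which encodes BIM, an activator that binds all survival members, shared 1 peak between the comparisons. That peak 2 (chromosome 2, 128147167 to 128158623 in the ClpP comparison, plus strand) joined a block of 28 bases to one of 393 bases. Its fold enrichment was 11.7 for ClpP and 36.7 for ClpX in the authors' deposited table, and 36.7 was the highest of the family in the ClpX comparison. Its log2 fold change was -0.57 (adjusted p 0.50) for ClpP and 0.26 (adjusted p 0.61) for ClpX in the authors' deposited table. The 5′ peaks differed in position: 128131309 to 128131489 for ClpP, at 2.70 (adjusted p 0.41), and 128127749 to 128128217 for ClpX, at 0.17 (adjusted p 0.74) in the authors' deposited table. The ClpP value of 2.70 was the largest of the family and was not called, whereas the similar 2.64 of Mcl1 peak 2 was.

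**Figure D3:**
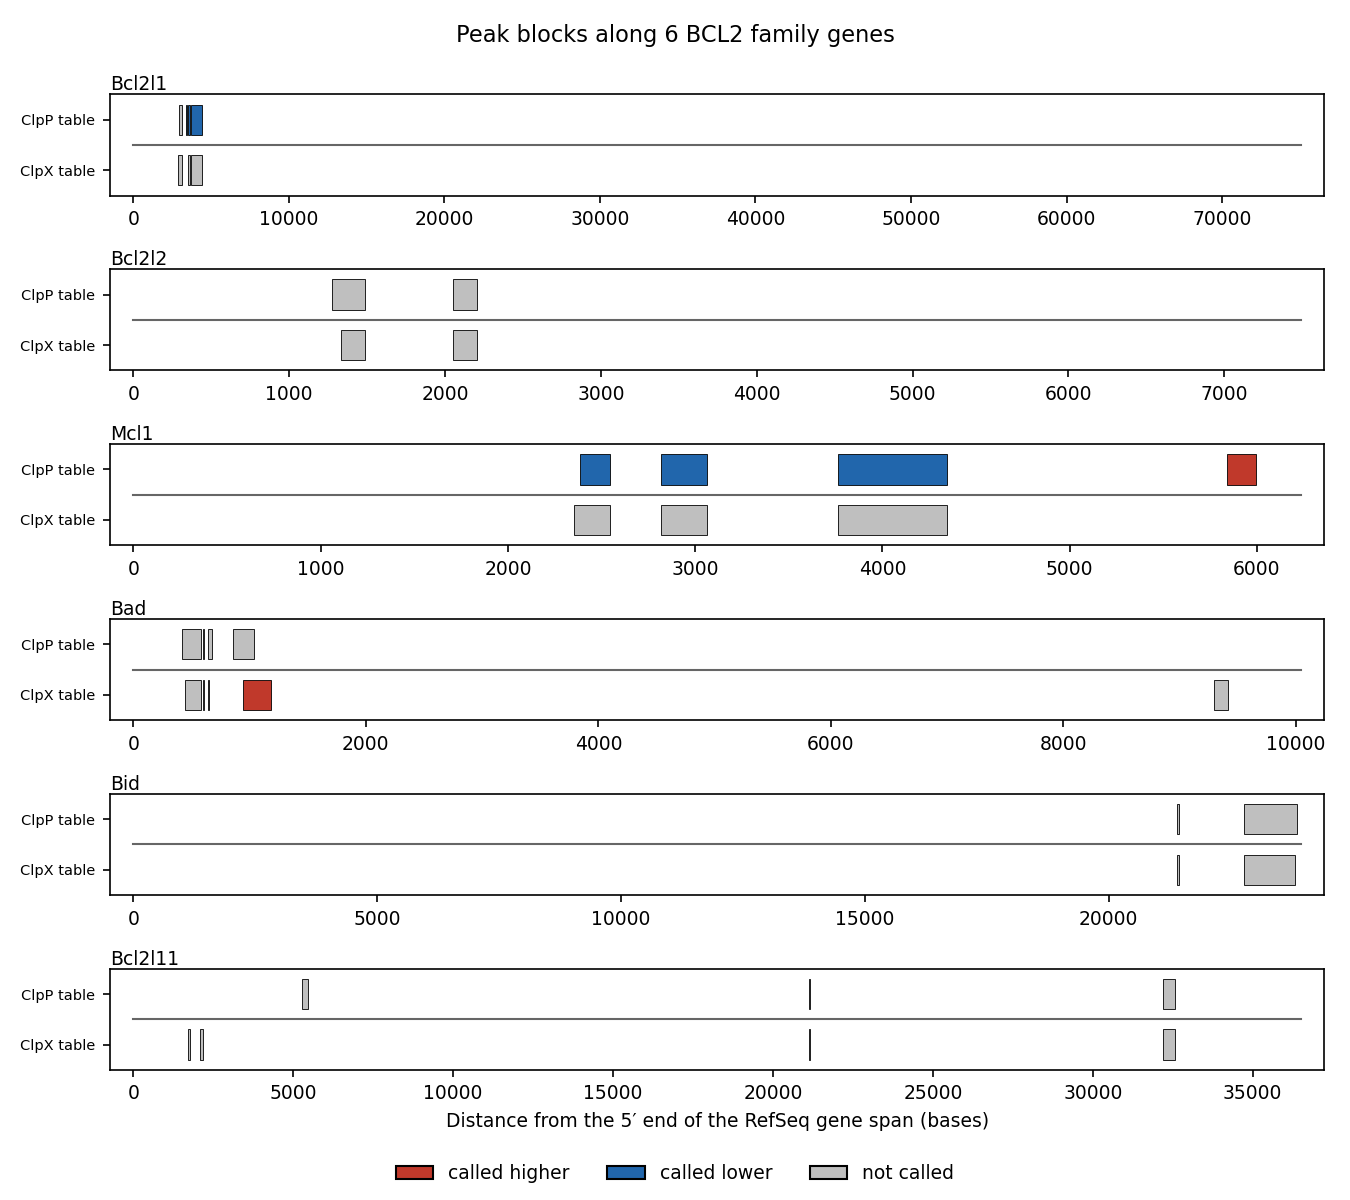
Peak blocks along the 6 BCL2 family genes with a listed peak, by distance in bases from the 5′ end of the RefSeq gene span, with the ClpP comparison above the line and the ClpX comparison below it; red blocks were called higher, blue lower and grey blocks were not called. Bcl2l1 signal lies close to the 5′ end and Bid signal at the 3′ end, and in Mcl1 the blue blocks and the red block are separate.

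As a set, the members had values of both signs. For ClpP 6 of the 11 log2 fold changes were positive and 5 negative, with a median of 0.041 beside -0.034 over all peaks. For ClpX 8 were positive and 3 negative, with a median of 0.17 beside 0.24 over all peaks, and 4 of 11 lay above that general median. Member values ran from -0.85 to 2.70 for ClpP and from -2.17 to 1.70 for ClpX in the authors' deposited table. The members' median fold enrichments were 9.05 (ClpP) and 11.1 (ClpX), beside 8.23 and 8.90 over all peaks. More of them had several blocks, 45.5% and 54.5%, beside 29.7% and 27.5% of all peaks, which was not tested. Same-strand overlap by 1 base or more paired 9 of the 11 member peaks of each comparison. The paired values share the WT libraries. No paired peak was called in both knockouts. The shares of all peaks that paired, or that were called in both, were not computed, so neither count can be read as particular to the family.

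Other genes of the mitochondrial apoptosis pathway were set beside the family in 5 lists, each gene by its peak with the smallest p. Over all 5 lists 65 of 98 genes were listed for ClpP, with 7 called higher and 18 lower, beside 9.5% and 19.3% of all genes; their median was -0.37, beside -0.16 over all genes. For ClpX 66 were listed, with 15 called higher and 11 lower, beside 21.7% and 7.58% of all genes; their median was 0.075, beside 0.36. The values named for single genes below are those of the authors' deposited table.

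BCL2 relatives, together with BAG and BNIP genes named for partners of BCL2, had 2 higher and 4 lower of 15 for ClpP, and 2 higher and 4 lower of 15 for ClpX. Bag5, a co-chaperone of HSP70, was called lower at the same site in both, at -0.82 (ClpP) and -0.36 (ClpX) in the authors' deposited table. Bcl2l14 was lower in both as well, at -0.63 (ClpP) and -1.63 (ClpX) in the authors' deposited table. Bclaf1, a nuclear RNA-processing factor named for binding BCL2, was called at different sites, higher at 1.47 for ClpP and lower at -2.06 for ClpX in the authors' deposited table. The mitophagy receptor Bnip3l was higher at 2.99 and Bag3 lower at -0.66 for ClpP, and Bag1 was higher at 0.89 for ClpX in the authors' deposited table.

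Partners at the outer membrane, from voltage-dependent channels to ubiquitin ligases that degrade MCL1, had 2 higher and 5 lower of 13 for ClpP and 5 higher and 1 lower of 14 for ClpX. The membrane ligase Mul1 was lower at -0.74 for ClpP and higher at 0.73 for ClpX in the authors' deposited table, at overlapping sites. March5, another ligase of that membrane, was lower at -1.20 for ClpP and had 0.30 for ClpX, where it was not called, in the authors' deposited table. Huwe1, a ligase that acts on MCL1 protein, was called higher in both, at 1.06 (ClpP) and 1.65 (ClpX) in the authors' deposited table. Usp9x, a deubiquitinase of MCL1 protein, was called lower in both, at -0.76 (ClpP) and -1.22 (ClpX) in the authors' deposited table. The ligases of this list did not share a direction for ClpP, where Mul1 and March5 were lower and Huwe1 was higher. Tmbim6 (BAX inhibitor 1) was lower at -1.24 for ClpP and higher at 1.14 for ClpX at different, weakly enriched sites (1.37 and 1.67), and Btrc was higher at 1.98 for ClpX, also at a weakly enriched site (1.39), in the authors' deposited table.

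Factors released from mitochondria and the apoptosome had 1 higher and 1 lower of 7 for ClpP: the testis cytochrome c gene Cyct at 1.23 and the initiator caspase gene Casp9 at -1.73 in the authors' deposited table. For ClpX 3 of 7 were higher and 0 lower, beside 21.7% and 7.58% of all genes. The 3 were Diablo at 1.17, Htra2 at 1.60 and Endog at 1.26 in the authors' deposited table. The Diablo and Endog sites were weakly enriched (1.64 and 1.59). Of all ClpX peaks with a fold enrichment under 2.5, 46.5% were called higher. Each of the 3 called peaks overlaps the span of another gene's peak, so its gene is uncertain. Caspases and their inhibitors had 1 higher and 2 lower of 8 for ClpP, with Birc2 at 0.81, Birc5 at -0.47 and Birc6 at -0.71, and 0 higher and 2 lower of 9 for ClpX, with Xiap at -2.82 and Birc6 at -0.77 in the authors' deposited table.

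Upstream inputs had 1 higher and 6 lower of 22 for ClpP, and 5 higher and 4 lower of 21 for ClpX. The p53 inhibitors Mdm4 and Mdm2 were called lower in both, Mdm4 at -0.97 (ClpP) and -1.80 (ClpX) and Mdm2 at -0.46 (ClpP) and -0.39 (ClpX) in the authors' deposited table. Ppp2ca, a phosphatase subunit, was lower at -0.49 for ClpP in the authors' deposited table. Foxo3, a transcription factor, was lower at -0.92 for ClpP and higher at 3.92 for ClpX, at different sites, in the authors' deposited table. The ClpP site had a fold enrichment of 30.6, and the ClpX site only 2.56.

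**Figure D4:**
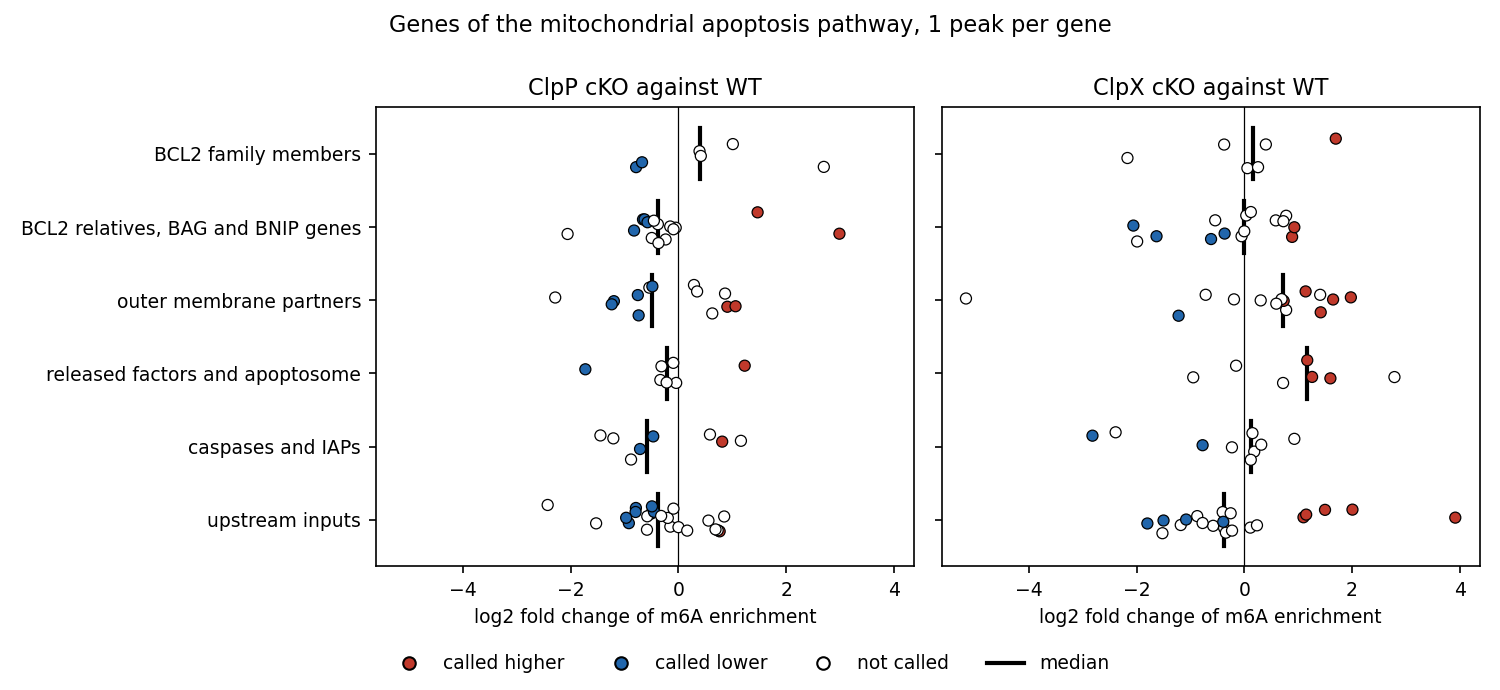
Log2 fold change of m6A enrichment (horizontal) of the 6 listed BCL2 family genes and of 5 lists of pathway genes, 1 point per gene by its peak with the smallest p, with ClpP cKO on the left and ClpX cKO on the right; red was called higher, blue lower, open not called, and black bars are medians. For ClpP the medians of all 5 pathway lists lie under 0, where the median over all genes was -0.16. For ClpX the median of the released factors lies highest, at 1.17 over 7 genes, beside 0.36 over all genes. That median is the value of Diablo, from a weakly enriched site (1.64).

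Markers of other cell types were present among the listed peaks. Of 18 markers of Leydig, Sertoli, peritubular, endothelial, stromal and immune cells, 10 were listed for ClpP with 3 called higher, 1 lower and a median of 0.48, and 13 for ClpX with 5 higher, 2 lower and a median of 1.81. Their log2 fold changes ran from -1.08 to 2.17 for ClpP and from -2.55 to 4.0 for ClpX in the authors' deposited table. Over all genes, taken like the markers by the peak with the smallest p, 9.5% were higher and 19.3% lower for ClpP, with a median of -0.16. For ClpX those values were 21.7%, 7.58% and 0.36. Of the higher somatic calls for ClpX, Clu (1.26), Insl3 (1.41) and Cyp17a1 (2.13) had low fold enrichments, and Col1a1 and C1qc had 3.9 and 4.27. All 7 spermatocyte markers were listed for ClpP, with 1 called higher and 3 lower, and 6 for ClpX, with 2 higher and 2 lower. All 5 spermatid markers were listed in both, with 2 called higher and 0 lower for ClpP and 4 higher and 0 lower for ClpX. All 5 spermatogonial markers were listed in both, with 1 higher and 1 lower for ClpP and 4 higher and 0 lower for ClpX. The part of other cell types in the family's values was not tested, and levels of RNA cannot be read from a peak table. The knockout genes could not check the labels, because a change of enrichment does not give the level of RNA. Clpx had 0.38 (ClpP) and 0.55 (ClpX) in the authors' deposited table. Clpp was listed for ClpX alone at 1.70 (adjusted p 0.069), and none of these peaks was called in the authors' deposited table.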

How the data were processed

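m6A-seq was run on 6 libraries, 1 IP and 1 input for each of ClpP cKO, ClpX cKO and WT, grouped by their titles. The submitters' processing notes name GRCm38 and mm10 as the build. The sources used here do not name the aligner, the peak caller or the scaling. The authors deposited 2 comparison tables. Per the file headers, these hold the p-value of each peak, scores that are the log10 of the p-values and adjusted p-values of peak and difference, a linear fold enrichment ratio and a log2 fold change. Depth is unknown, so no interval is given.

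From these, rows were matched by name, called at an adjusted p under 0.05, and set beside all peaks (Python 3.11.15, pandas 2.3.3). The calling code was run on simulated p-values with strong planted changes. The pairing code was run on listed peaks and copies of them moved by 1 base. Both runs check the code only and do not bear on how reliable calls from 1 library per group are. No test across samples was possible with 1 library per group. All members and their peaks are named; of the 5 other lists, genes called in both comparisons and up to 3 called genes per list and comparison. A gene that this rule takes is left out of the text. Members and lists were chosen with earlier results of these data known. Alternatives were adjusted p thresholds of 0.01 and 0.1, unadjusted p, a Benjamini-Hochberg adjustment over the table, a minimum fold enrichment of 2, a minimum absolute log2 fold change of 1, subtraction of the general median, 1 value per gene, and an overlap of 50%.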

Additional observations from a re-analysis of the deposited data

How the results depend on the processing

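Each count of members called higher or lower kept its value at adjusted p thresholds of 0.01 and 0.1, at an unadjusted p under 0.05 and with a Benjamini-Hochberg adjustment over the table, and the 4 called peaks stayed called at 0.01. The shares of all peaks moved over those settings. From the 0.01 threshold to the 0.1 threshold they went from 4.06% to 8.96% higher and 9.66% to 15.3% lower for ClpP. For ClpX they went from 11.3% to 17.7% higher and 2.78% to 6.86% lower. With a fold enrichment of at least 2, the ClpP count called higher became 0, since Mcl1 peak 2 was removed, beside 6% of all ClpP peaks in that range. When calls also needed a change of 1 or more on the log2 scale, the ClpP count called lower became 0, beside 4.65% of all ClpP peaks. The ClpP median moved to 0.40 with 1 value per gene by smallest p, to 0.31 with the mean of a gene's peaks, and to -0.10 without peaks sharing bases with another gene's peak, an alternative chosen after seeing the data. The ClpX median moved to -0.069 once the median of all peaks was subtracted. That subtraction also turned the sign of 4 uncalled ClpX values: Bcl2l1 peak 2 to -0.22, Mcl1 peak 1 to -0.18, Bcl2l11 peak 1 to -0.069 and Bcl2l2 peak 1 to -0.002. Medians were taken as moved at 0.1 or more. The 9 pairs stayed 9 at an overlap of 50% of the shorter peak. No paired analysis was possible because each group holds 1 library and the labels carry no replicate numbers. Without read counts, depth sets no stated limit here, and a scaling factor that differed between IP libraries would shift all values of a comparison together.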
